A study of Rattus norvegicus with 15 samples.

Results

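Retinas of rats injected with mesenchymal stem cells (MSCs) were compared with retinas of rats injected with MSCs engineered to express erythropoietin (MSCEPO), at day 31 of the study. The comparison took the 3 libraries labelled MSC and the 3 labelled EPO, 6 of the 15 RNA sequencing libraries of the series. Genes were kept where their mean regularized log (rlog) value over these 6 libraries was at least the log2 of 10, which left 15466 of the 20375 genes listed (75.9%). An rlog value is a log2 expression level corrected for library size and shrunken toward the mean of the gene, so differences between groups are smaller on this scale than in read counts.

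All 6 libraries came from wild type Sprague-Dawley rats, at postnatal week 12 in the sample labels, while the series text gives a younger age. Each rat had received cells by intravitreal injection and sodium iodate (NaIO3) systemically at 40 mg/kg. In the study's methods the cells were injected before the NaIO3, and days were counted from the NaIO3. Because the cells were a human xenograft, both groups were given dexamethasone (2 mg/kg) before and cyclosporin (10 mg/kg/day) after the surgery. The MSC group received cells of human Wharton's jelly, the tissue of the umbilical cord, and the MSCEPO group received the same kind of cells after lentiviral transduction with human EPO and sorting. The cell density differs between the sample labels and the study's methods, so no dose is given. Reads were assigned to rat transcripts, so neither the human transgene nor the number of human cells left in the eye was measured. Retinas without cells or NaIO3 (NT) and retinas given vehicle and NaIO3 (sham), 3 libraries each, are quoted as background levels alone. The labels of NT and sham name no dexamethasone or cyclosporin, so these groups may also differ from the cell-injected ones in immunosuppression. The labels do not say whether the 3 libraries of a group are separate rats or what a replicate number marks. The study's text calls its replicates biological, which was not checked here. The p-values measure only the spread between these libraries.

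NaIO3 is toxic to the retinal pigment epithelium, and photoreceptors degenerate after the epithelium is lost. MSCs are known for secreting trophic and immune-modulating factors. Erythropoietin binds its receptor EPOR, the kinase JAK2 attached to the receptor is activated, and the transcription factor STAT5 is phosphorylated and moves to the nucleus, where it switches on feedback inhibitors such as Cish and Socs2 and survival genes such as Bcl2l1 and Pim1. In the retina erythropoietin is known for protecting photoreceptors and ganglion cells in models of injury.

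The defining markers of retina were high in all 6 libraries. The rod arrestin Sag lay between 15.20 and 15.62 and the glial enzyme Glul between 15.21 and 15.74. The library medians were close (8.63 to 8.81), and the read depth is unknown from rlog values. The spread among replicates was wider in the treated groups, with a median SD per gene of 0.163 in MSC and 0.245 in MSCEPO beside 0.0996 in NT and 0.116 in sham. A library in each group stood apart. MSC replicate 1 had the highest value of the 6 libraries in 4311 genes (27.9%), and all 17 common leukocyte genes were highest there. MSCEPO replicate 3 was the lowest of the 6 in 5971 genes (38.6%) and the highest in 5005 (32.4%). Values are therefore given with all 6 libraries and, where it matters, without MSC replicate 1, without MSCEPO replicate 3, or without both, the last being a choice made after the values were seen. Differences are MSC minus MSCEPO on the log2 scale, and replicate values follow the order 1, 2, 3.

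No gene passed the threshold between MSC and MSCEPO. With limma on the 6 libraries, 0 of 15466 genes (percent called 0) had an adjusted p under 0.05 and a difference over 1, and the smallest adjusted p was 0.152. Without adjustment, 77 genes higher in MSC (0.498% of those tested) and 17 higher in MSCEPO (0.110%) had a p under 0.05. With the replicate number as a block, again 0 genes were called (smallest adjusted p 0.125), while 522 higher in MSC and 38 higher in MSCEPO had an unadjusted p under 0.05. The median difference over all genes was 0.03, with quartiles of -0.10 and 0.18, and 54.8% of genes had a higher mean in MSC. This slight lean depended on scaling. With each library centred on its median the median difference was -0.03, and after quantile normalization it was -0.05.

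Before any test, the largest differences lay on the MSC side. The group means were more than 2-fold apart, with MSC higher, in 209 genes (1.35%), and with MSCEPO higher in 9 (0.0582%). Of the 209, 108 had no gene symbol, and 86 of these unnamed genes were under 5 in every NT and sham library. MSC replicate 1 was the highest and MSCEPO replicate 3 the lowest library in 154 of the 209 (73.7%), beside 2210 of all 15466 genes. In 27 of the 209 the groups did not overlap, beside 2.20% of all genes with MSC higher. In 180 of the 209 each MSC library was above the MSCEPO library of its own number, beside 13.9% of all genes. The choice of genes by this difference favors all of these patterns. Without MSC replicate 1 the counts were 116 and 26, without MSCEPO replicate 3 they were 137 and 19, and without both they were 51 higher in MSC and 76 higher in MSCEPO. The last setting takes 1 library from each of 2 same-numbered pairs, so it also breaks these pairs. Without MSC replicate 3 or MSCEPO replicate 1 the counts on the MSC side grew to 446 and 401.

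**Figure D1:**
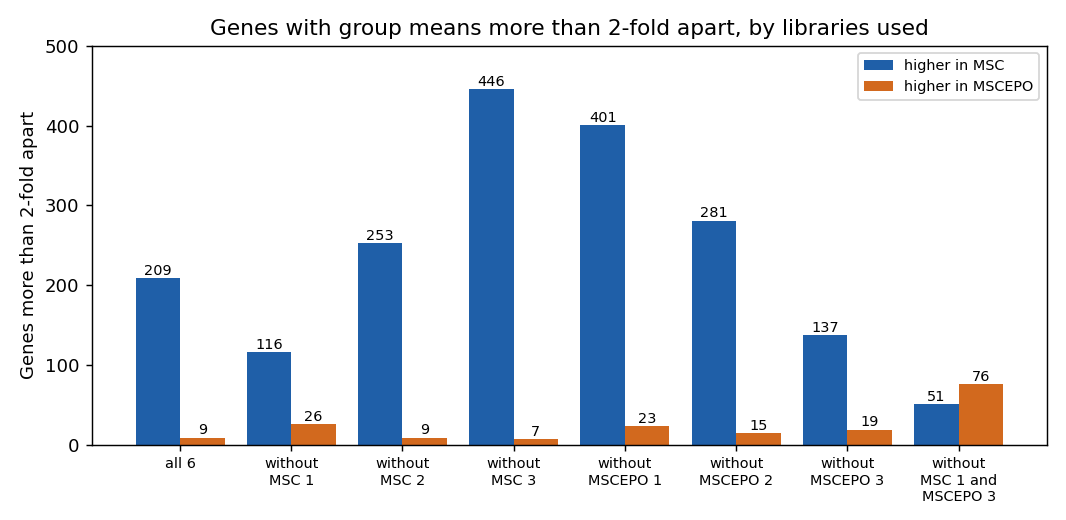
Number of genes (vertical axis) whose group means were more than 2-fold apart, with all 6 libraries and with the libraries named under each pair of bars left out; blue bars count genes higher in MSC and orange bars genes higher in MSCEPO. With all 6 libraries the counts were 209 and 9, and without MSC replicate 1 and MSCEPO replicate 3 they were 51 and 76.

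The 9 genes more than 2-fold higher in MSCEPO were Tmem221, Asb15, Ifit1, Hba1, Rnf113a1, Rpl30, LOC103693564, LOC100360791 and LOC100912571. Ifit1, an interferon-induced RNA-binding protein, was 4.77, 4.60 and 6.62 in MSC and 7.31, 7.11 and 4.76 in MSCEPO, so it was low in 2 libraries of the first group and in 1 of the second. Asb15, an adaptor of ubiquitin ligases, was 8.96, 5.46 and 5.53 in MSC and 8.25, 8.39 and 9.17 in MSCEPO, so MSC replicate 1 was level with the MSCEPO group. The symbol Rnf113a1 belongs to 2 identifiers that moved in opposite directions (-1.25 and 1.36), and whether reads were shared between them was not tested, so both are uncertain.

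A steadier subset remained when each library was left out in turn. The groups did not overlap in 340 genes higher in MSC (2.20%) and 296 higher in MSCEPO (1.91%). That split depended on scaling: with each library centred on its median it was 207 and 424, and after quantile normalization 191 and 478. In 22 genes higher in MSC and 1 higher in MSCEPO the groups did not overlap and the difference stayed over 1 whichever library was left out. Of the 22, 17 had no symbol, and the other 5 were Krt12, RT1-Db2, Muc4, LOC100365839 and Clca4l. The 1 gene on the MSCEPO side was Tmem221. These genes were chosen by this same contrast, so their values describe it and are no further evidence for it.

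Krt12, the type I keratin that marks the corneal epithelium, was 9.21, 9.0 and 8.79 in MSC and 5.94, 6.49 and 6.71 in MSCEPO. The groups lay more than 2 units apart at their nearest values. The difference was 2.62 (SE 0.24, 95% interval 2.03 to 3.20, limma adjusted p 0.152). It ran from 2.40 to 2.78 as libraries were left out, the highest minimum among the 6 named genes of this subset. The background was itself uneven, with NT at 6.73, 9.18 and 9.09 and sham at 9.09, 10.95 and 10.33, so the MSCEPO values were the low ones and only NT replicate 1 came near them.

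Some other epithelial genes were also higher in MSC. Muc4, a membrane mucin of the ocular surface, was 7.47, 7.90 and 8.11 in MSC and 5.74, 6.45 and 6.39 in MSCEPO, a difference of 1.63 (SE 0.27, adjusted p 0.974, or 0.179 with the replicate block). Clca4l, of the calcium-activated chloride channel regulator family, was 6.49, 7.18 and 7.40 against 5.36, 6.01 and 5.92 (difference 1.26). Krt75, another epithelial keratin, was 4.88, 4.95 and 5.09 against 4.39, 4.33 and 4.75 (difference 0.48). Krt5, the keratin of basal epithelial cells, overlapped: it was 8.61, 7.92 and 8.21 in MSC and 5.35, 5.60 and 8.87 in MSCEPO, so MSCEPO replicate 3 had the highest value of all. Its difference was 1.64 with all 6 libraries and 2.77 without MSCEPO replicate 3. Csta and Spink5, protease inhibitors of stratified epithelia that were picked out after their values were seen, differed by 0.58 and 0.54 without overlap. The fixed list of cornea, ciliary body and trabecular meshwork genes as a whole did not lean either way: 6 of 13 tested genes were higher in MSC, 3 did not overlap (2.20% over all genes), and the median was -0.04 beside 0.03 over all genes. Among the 7 members with a higher mean in MSCEPO were Ptgds (-0.48), Myoc (-0.37) and the epithelial keratin Krt15 (-0.36). How much ocular surface tissue each dissected retina carried was not tested.

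On the MSCEPO side, Tmem221, a transmembrane protein, was 4.89, 4.92 and 4.91 in MSC and 6.39, 7.15 and 6.44 in MSCEPO. The difference was -1.75 (SE 0.23, 95% interval -2.30 to -1.21, adjusted p 0.578, or 0.196 with the block). NT held both levels (4.99, 7.76 and 4.95), and sham was 7.55, 6.36 and 7.54, so the gene varied within groups outside this comparison too. Pcdh10, a protocadherin of neural cell adhesion, was 9.94, 10.33 and 10.37 in MSC and 10.79, 10.98 and 11.11 in MSCEPO (difference -0.75, interval -1.14 to -0.36, adjusted p 0.974). Ppp1r1b, the dopamine-regulated phosphatase inhibitor DARPP-32, was 9.23, 9.31 and 9.30 against 9.66, 9.70 and 9.74 (difference -0.42, interval -0.70 to -0.14). The remaining genes with the largest differences without overlap on this side were between -0.72 and -0.48. They were the tetraspanin Cd151 (one of the identifiers with this symbol), LOC100912498, the methionine sulfoxide reductase Msrb2, LOC103693563, the hypoxia-induced mitochondrial protein Ndufa4l2, the LIM-domain protein Csrp2, Sapcd1 and the imprinted splicing factor Snrpn. LOC100912498 owed its difference to MSCEPO replicate 2, at 5.00 beside 3.0 to 3.04 in the other 5 libraries.

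**Figure D2:**
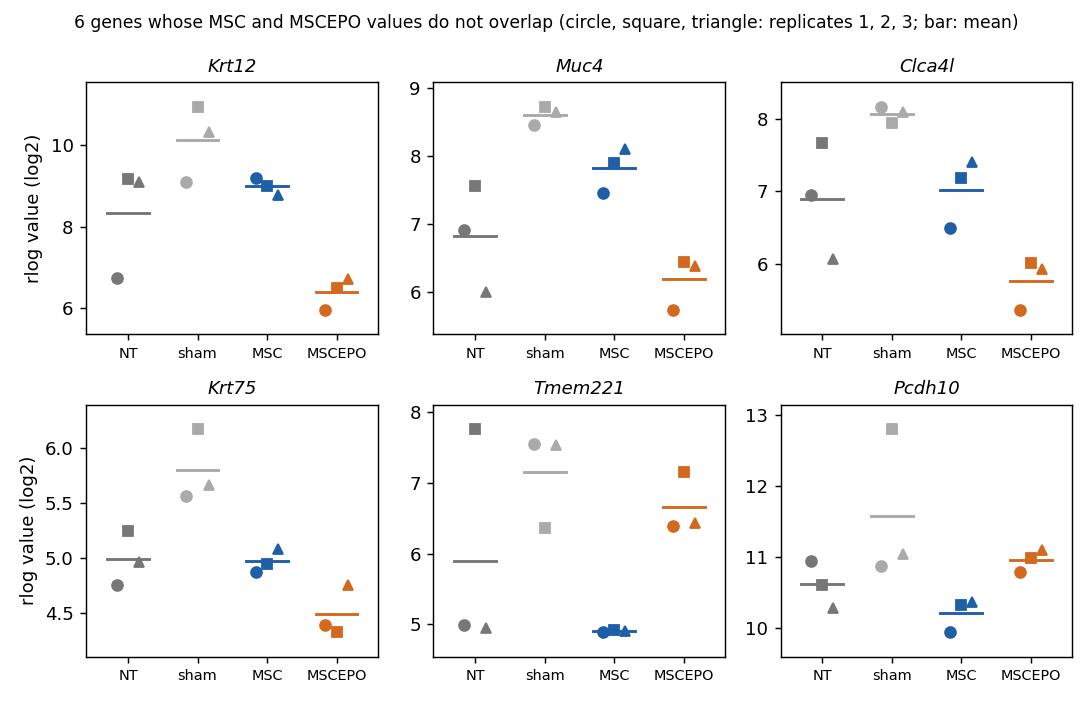
rlog values (log2, vertical axis, a separate scale in each panel that does not start at 0) of 6 genes in the NT, sham, MSC and MSCEPO groups; circles, squares and triangles are replicates 1, 2 and 3, and bars are group means. Krt12, Muc4, Clca4l and Krt75 were higher in every MSC than in every MSCEPO library, and Tmem221 and Pcdh10 were lower.

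Among genes with a symbol, the largest difference without overlap on the MSC side was that of RT1-Db2, a class II histocompatibility beta chain. It was 10.63, 7.66 and 6.48 in MSC and 6.30, 4.31 and 6.23 in MSCEPO, a difference of 2.64 (SE 1.09) that fell to 1.46 without MSC replicate 1. It belongs to a family of near-identical copies, so reads may have been split among them. LOC100365839 was 9.70, 8.95 and 7.83 against 7.83, 7.47 and 5.65 (difference 1.85, or 1.18 without MSCEPO replicate 3). Zap70, the kinase next to the T cell receptor, was 6.19, 5.16 and 4.78 against 4.65, 4.43 and 4.19 (difference 0.96). In the other 4 the difference also shrank without a single library. One of 2 identifiers named Hspa1a, an inducible heat shock protein, was 11.04, 10.64 and 10.99 in MSC and 10.63, 10.52 and 6.99 in MSCEPO (difference 1.51, and 0.31 without MSCEPO replicate 3), while the other identifier differed by -0.17. One of the identifiers named Lnpep, a membrane aminopeptidase, differed by 1.01 (0.60 without MSCEPO replicate 3), Intu, a protein of cilium formation, by 0.95 (0.36 without it), and LOC103694381 by 1.04 (0.62 without MSC replicate 1).

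Of the genes without a symbol, ENSRNOG00000050489 had the smallest p. It was 5.56, 5.43 and 5.75 in MSC and 3.86, 3.89 and 3.51 in MSCEPO, a difference of 1.83 (SE 0.15, 95% interval 1.46 to 2.20, adjusted p 0.152). All NT and sham values lay between 3.45 and 3.54. ENSRNOG00000050708 had a larger and less even difference, with 10.43, 9.32 and 7.81 in MSC, 6.60, 6.79 and 4.14 in MSCEPO and 3.96 to 4.32 in NT and sham (difference 3.35, SE 0.90).

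The erythropoietin pathway is the one that the engineered cells were built to engage, and the rat transcripts of its receptor and of the STAT5 targets Cish, Socs2 and Bcl2l1 overlapped between the groups. Those of the target Pim1 did not overlap, with MSC higher, as given below. Rat Epo was listed between 0.57 and 0.73 in all 6 libraries and was not tested. Epor was 3.76, 3.70 and 3.68 in MSC and 3.58, 3.66 and 3.81 in MSCEPO, close to the filter in every library. Its difference was 0.03 with a 95% interval of -0.20 to 0.26 (two-sided exact permutation p 0.8, and 0.1 is the smallest that 3 against 3 can give). Cish, the STAT5-induced inhibitor of cytokine receptors, was 6.65, 6.36 and 6.23 against 6.41, 6.22 and 6.50, so the groups were interleaved (difference 0.04, interval -0.38 to 0.46, exact p 0.9).

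The 250 bases before the start of Cish are shown because they hold 4 copies of the sequence that activated STAT5 dimers bind. They were read from the RefSeq promoter table (build GRCr8, chr8:116850719-116850968, plus strand, 5' to 3'), with the matches to TTCNNNGAA, which reads the same on both strands, in capitals.
Cish: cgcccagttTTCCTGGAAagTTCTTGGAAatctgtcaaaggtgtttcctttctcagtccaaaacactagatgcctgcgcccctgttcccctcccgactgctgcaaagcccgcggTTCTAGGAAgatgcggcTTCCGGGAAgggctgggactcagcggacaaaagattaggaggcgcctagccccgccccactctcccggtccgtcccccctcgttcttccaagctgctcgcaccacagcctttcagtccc
The matches begin 241, 230, 136 and 119 bases before the start. At least 1 match was found in 7.67% of 33469 rat windows of this length, and 4 or more in 2 windows. A match describes the letters only. The transcript that starts after these 4 matches overlapped between the groups, as given above.

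Socs2, a second feedback inhibitor, differed by 0.13 (interval -0.29 to 0.56, exact p 0.5) and Bcl2l1, the survival gene encoding BCL-XL, by -0.04 (-0.38 to 0.30, exact p 0.8). Pim1, a survival kinase, was 7.41, 6.28 and 6.09 in MSC and 5.96, 6.08 and 5.79 in MSCEPO. The MSC values were all higher (difference 0.65, interval -0.19 to 1.50, exact p 0.1), but the difference was 0.24 without MSC replicate 1. Tfrc, the transferrin receptor for iron uptake, was 10.75, 10.65 and 10.60 against 10.56, 10.40 and 10.55, also without overlap (difference 0.17, interval -0.11 to 0.45). Upstream, Jak2 differed by 0.34 (-0.20 to 0.87), Stat5a by 0.21 (-0.46 to 0.89) and Stat5b by 0.41 (-0.21 to 1.02). Csf2rb, the beta chain shared by receptors of the interleukin-3 family, had the largest value of the list, with 9.49, 7.62 and 7.0 in MSC and 7.32, 7.12 and 5.63 in MSCEPO (difference 1.35, or 0.09 without both outlying libraries). Ptpn6, the phosphatase SHP-1 that is abundant in leukocytes, differed by 0.70, and by -0.10 without both.

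Of the 25 genes of the erythropoietin and STAT5 list 20 were tested. In 15 the MSC mean was higher and in 5 the MSCEPO mean, 0 were called, and the groups did not overlap in 2 (2.20% over all genes with MSC higher). The list median was 0.15 beside 0.03 over all genes, and it was -0.05 without both outlying libraries, with 6 of 20 genes then higher in MSC. The sign of the list median thus depended on MSC replicate 1, without which alone it was -0.02. The intervals of Epor, Cish, Bcl2l1 and Socs2 lay within 1 unit on either side of 0. Those of Csf2rb, Pik3r1 (-0.92 to 1.90), Pim1 and Stat5b did not.

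**Figure D3:**
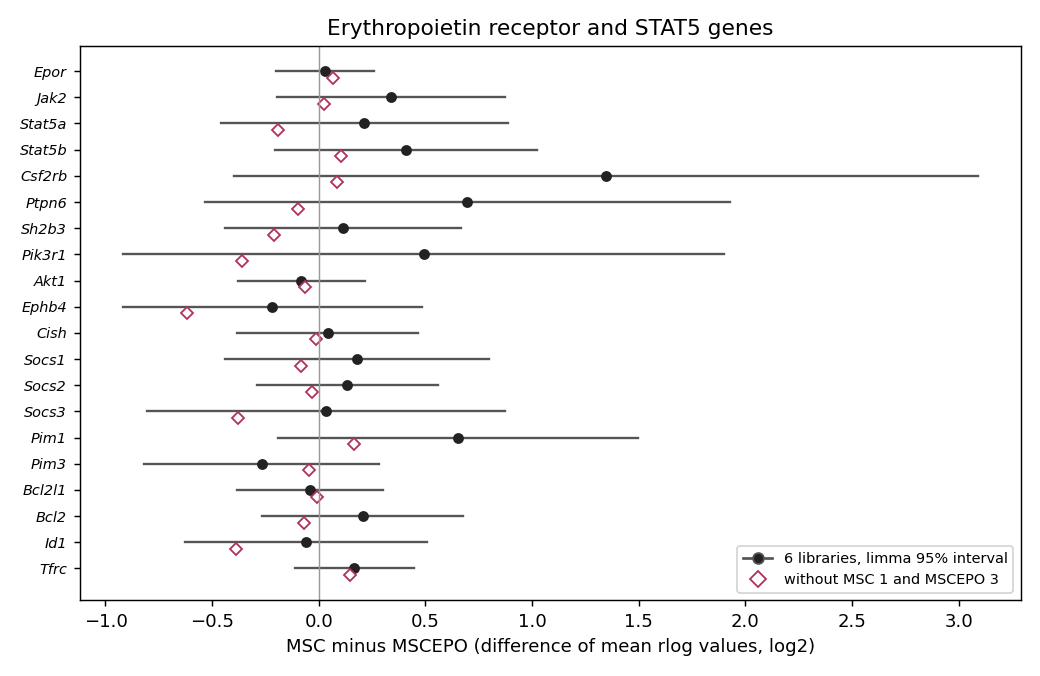
Difference of mean rlog values, MSC minus MSCEPO (horizontal axis, log2), for the 20 tested genes of the erythropoietin receptor and STAT5 list; black points are estimates from 6 libraries with limma 95% intervals and open diamonds are differences without MSC replicate 1 and MSCEPO replicate 3. All 20 intervals include 0, and Csf2rb moved from 1.35 to 0.09.

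The 8 genes of proliferation and growth that the study singled out were also read in this contrast. The study reported them as significant in MSCEPO with sham as its reference, which is another comparison than MSC against MSCEPO. The level of the list was 8.47, 8.34 and 8.10 in MSC and 8.35, 8.47 and 7.52 in MSCEPO, beside 7.60 to 7.73 in sham. In this list 7 had a higher mean in MSC and 0 were called, with a list median of 0.17, or -0.20 without both outlying libraries. Nfatc1, a calcium-dependent transcription factor, was 8.04, 7.29 and 6.89 in MSC and 6.99, 7.15 and 6.02 in MSCEPO, which overlap (difference 0.68, exact p 0.3). The G1 cyclins Ccnd1 (0.02, exact p 0.9), Ccnd2 (0.35, exact p 0.8) and Ccne2 (0.02, exact p 0.8) also had a higher mean in MSC. So did their kinase Cdk6 (0.12, exact p 1), the plasminogen activator Plau (0.22, exact p 0.9) and the phospholipase Plce1 (0.22, exact p 0.6). Hspb1, a small heat shock protein, was the 1 gene with a higher mean in MSCEPO (-0.12, exact p 0.2). Over the 13 single genes tested this way the Benjamini-Hochberg adjusted p was at least 0.975. In 7 of the 8 genes MSCEPO replicate 3 was the lowest library.

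Rod photoreceptor genes were slightly higher in MSC. Of 40 tested genes in both rod lists 36 had a higher mean in MSC, where 54.8% of all genes did, and the median difference was 0.24. The counts kept this side when libraries were set aside, with 36 of 40 without MSCEPO replicate 3 (median 0.20) and 35 of 40 without both outlying libraries (median 0.14), and after each library was centred on its median the list medians were 0.17 and 0.25. None of the 40 genes was called. In bulk tissue fewer rods and less RNA per rod cannot be told apart. Bipolar, amacrine and horizontal, cone and ganglion cell lists also leaned to MSC without both outlying libraries, as given below. Whether the lean was particular to rods was not tested.

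The mean level of the 20 phototransduction genes was 13.17, 13.04 and 13.11 in MSC and 12.98, 12.83 and 12.79 in MSCEPO, so the groups did not overlap. Both lay below sham (13.58 to 13.76) and NT (14.27 to 14.37). The 20 genes of rod structure and identity were at 11.83, 11.65 and 11.71 in MSC and 11.62, 11.46 and 11.26 in MSCEPO, again without overlap, beside 11.94 to 12.25 in sham and 12.66 to 12.75 in NT.

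In 6 of the 40 rod genes the groups did not overlap, with MSC higher, as in 2.20% of all genes, a share that depended on scaling. Among them were the photoreceptor kinase Grk1 (0.40), the nuclear receptor Esrrb, the photoreceptor transcription factor Crx (0.36) and the ciliary protein Fam161a (0.36). Esrrb, which is needed for rod survival, was the steadiest of these 4. It was 9.12, 9.31 and 9.34 in MSC and 8.95, 8.82 and 8.74 in MSCEPO, and the difference of 0.42 (SE 0.14, interval 0.09 to 0.75, adjusted p 0.974) stayed between 0.37 and 0.49 as libraries were left out. Crx went from 0.36 to 0.20 and Grk1 from 0.40 to 0.16 without MSCEPO replicate 3.

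The rod genes of MSCEPO replicate 3 were split. Rgs9, which speeds the shutoff of transducin, was 12.16 and 11.86 in MSCEPO replicates 1 and 2 and 9.90 in replicate 3. The guanylate cyclase gene Gucy2f was at 9.82, 9.56 and 7.78, and the matrix proteoglycan Impg2 at 14.33, 13.89 and 11.90. Gnat1, the rod transducin alpha subunit, ran the other way, at 15.19, 14.71 and 16.28, as did the disc rim protein Rom1 at 13.34, 13.18 and 14.29. Of the 40 rod genes 19 were lowest and 12 highest in this library, beside 38.6% and 32.4% of all genes. For Gnat1 the difference changed from 0.23 to 0.67 without it, and for Rgs9 from 0.84 to 0.14.

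**Figure D4:**
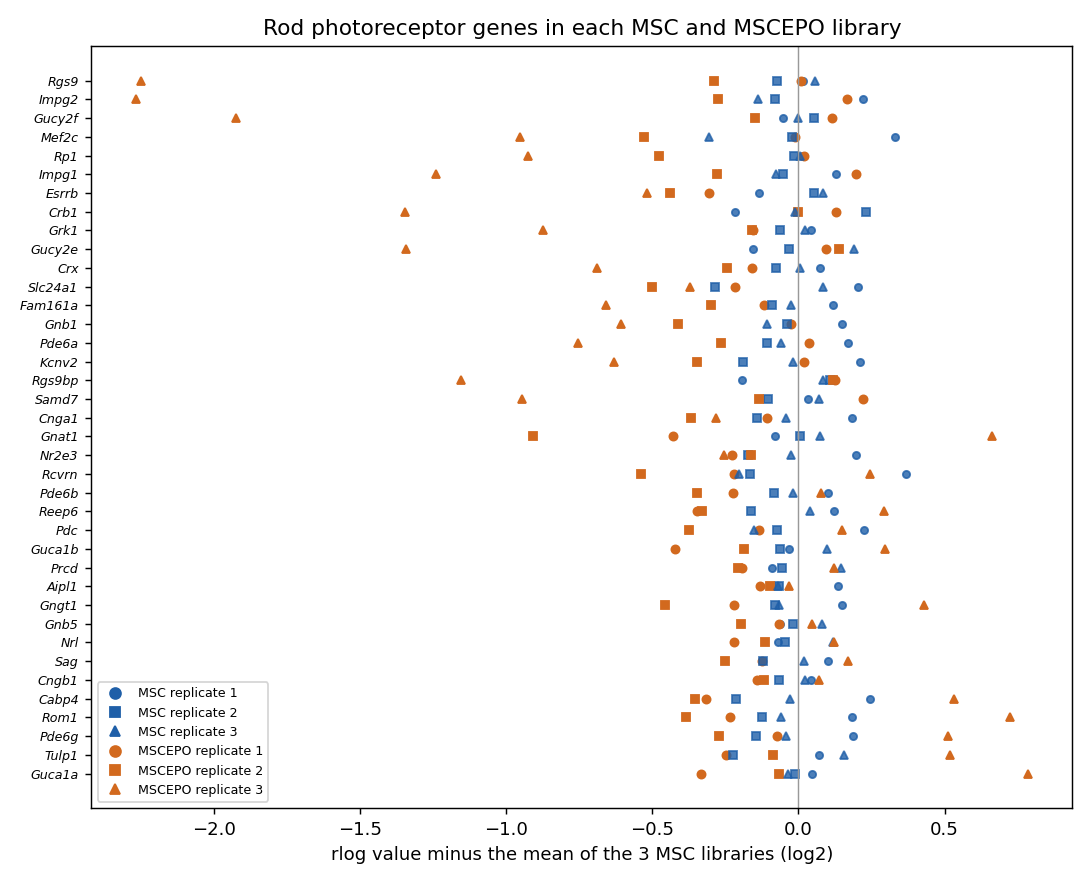
rlog values of 38 of the 40 tested rod genes (rows) in each library, as the difference from the mean of the 3 MSC libraries (horizontal axis, log2); blue symbols are MSC and orange symbols MSCEPO libraries, with a shape for each replicate number. Most circles and squares of MSCEPO replicates 1 and 2 lie left of the line at 0, while the triangles of MSCEPO replicate 3 spread from Rgs9 and Impg2 on the left to Rom1 and Guca1a on the right.

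Other retinal cell types were described in the same way. Ganglion cell genes had a higher mean in MSCEPO in 14 of 16 (median -0.20), but 14 of the 16 were highest in MSCEPO replicate 3, and without it the median was -0.01. Sncg, a synuclein of ganglion cells, shows this with 10.84, 11.01 and 11.20 in MSC and 11.04, 11.09 and 12.12 in MSCEPO. Amacrine and horizontal cell genes had a median of -0.16 with 13 of 18 higher in MSCEPO, and 0.16 without both outlying libraries, with 17 of 18 higher in MSC. Bipolar genes (0.01, 8 of 16 higher in MSC), cone genes (0.06, 8 of 13) and genes of Müller glia (0.05, 8 of 14) were near the median of all genes with all 6 libraries. Without both outlying libraries these lists, like the rod lists, leaned to MSC, with 15 of 16 bipolar genes (0.11), 11 of 13 cone genes (0.14), 12 of 14 genes of Müller glia (0.05) and 12 of 16 ganglion cell genes (0.12) higher there. The lean of the rod genes was not tested against that of other retinal genes. Reactive gliosis genes had a median of 0.18 with 15 of 21 higher in MSC, which became -0.21 with 2 of 21 without both libraries.

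The 5 leukocyte lists below had the highest medians of the 41 lists, and the sizes of their differences depended on MSC replicate 1 and MSCEPO replicate 3. T and NK cell genes had a higher mean in MSC in 25 of 26 (median 0.76), B and plasma cell genes in 15 of 15 (0.89), common leukocyte genes in 17 of 17 (0.82), macrophage and microglia genes in 25 of 27 (0.51) and class II histocompatibility genes in 11 of 11 (0.90), beside 54.8% and 0.03 over all genes. Of these lists 0 genes were called. The groups did not overlap in 1, 3, 0, 0 and 1 of these genes in the same order, beside 2.20% of all genes, so most of these counts are near that share. Without both outlying libraries the medians were 0.17 for T and NK cells and 0.20 for B and plasma cells, with 23 of 26 and 12 of 15 genes higher in MSC, and -0.11 for macrophages with 5 of 27. Common leukocyte and class II genes were then at a median of 0.00, with 9 of 17 and 5 of 11 higher in MSC.

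The level of the T and NK cell list was 6.91, 5.61 and 5.06 in MSC and 5.32, 4.96 and 4.72 in MSCEPO, beside 4.45 to 4.55 in NT and sham. The B and plasma cell list was at 8.31, 6.78 and 6.05 against 6.47, 6.04 and 5.05, beside 4.94 to 5.02. For macrophages and microglia the levels were 10.24, 9.15 and 8.69 against 9.26, 8.88 and 8.41, with 6.84 to 7.28 in NT and 7.94 to 8.47 in sham. In all 3 lists the groups overlapped, because MSC replicate 3 lay below MSCEPO replicate 1, yet each MSC library was above the MSCEPO library of its own number. Such an order in all 3 same-numbered pairs was found in 21 of 26 T and NK cell genes and 14 of 15 B cell genes, against 13.9% of all genes. MSC replicate 1 was the highest library in 25 of 26 and 15 of 15 of these genes, and MSCEPO replicate 3 the lowest in 18 and 14. With the replicate block 17 of the 26 and 12 of the 15 had an unadjusted p under 0.05, beside 3.62% of all genes in that fit, and 0 were called. The block was chosen from these same values, and the lists with earlier results known. These counts therefore describe the order of the libraries and are no separate evidence for it.

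**Figure D5:**
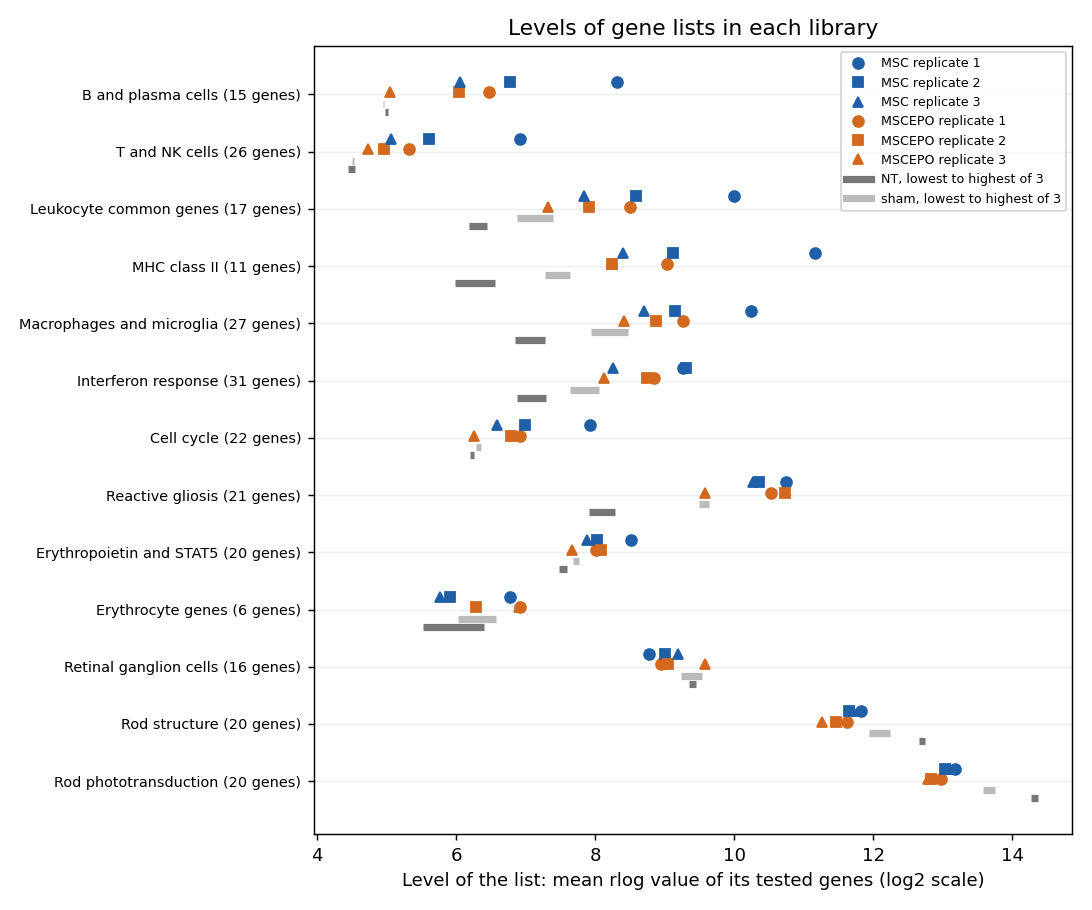
Level of gene lists (rows) in each MSC (blue) and MSCEPO (orange) library, as the mean rlog value of the tested genes (horizontal axis, log2); grey bars span the lowest to the highest of the 3 NT and of the 3 sham libraries. MSC replicate 1 stands to the right in the leukocyte lists, where the B and plasma cell level was 8.31 beside 5.05 to 6.78 in the other treated libraries, and the rod lists lie to the left of NT and sham.

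Single genes show the same order of libraries. Icos, a costimulator of activated T cells, was 9.60, 6.32 and 4.82 in MSC and 5.32, 4.64 and 4.06 in MSCEPO (difference 2.24, interval -0.48 to 4.97). Cd3e, a chain of the T cell receptor complex, was 9.67, 6.48 and 5.65 against 6.10, 5.00 and 5.18 (difference 1.84, or 0.64 without MSC replicate 1). The NK cell receptor Ncr1 differed by 0.14. Pou2af1, a coactivator of B cells, was 10.93, 7.90 and 6.41 against 7.25, 6.34 and 4.19 (difference 2.49, or 0.37 without both). Cd79a, part of the B cell receptor, was 9.90, 7.87 and 6.65 against 7.43, 6.64 and 4.19 (difference 2.05, or 0.22 without both). In Icos, Cd3e, Pou2af1 and Cd79a alike, MSC replicates 1 and 2 lay above the MSCEPO range and MSC replicate 3 lay inside it.

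Myeloid genes were less uniform. Lyz2, the lysozyme of macrophages and other myeloid cells, was 14.61, 11.94 and 10.97 in MSC and 11.91, 11.37 and 9.58 in MSCEPO (difference 1.55, or -0.19 without both outlying libraries). Ptprc, the pan-leukocyte antigen CD45, differed by 1.52 (adjusted p 0.974, or 0.208 with the block). The complement gene C1qa was 12.34, 11.20 and 10.75 against 11.14, 10.90 and 11.06 (difference 0.40). Tmem119, a marker of resident microglia, was 7.91, 6.96 and 6.35 in MSC and 7.42, 7.09 and 7.60 in MSCEPO, a difference of -0.29 on the other side of 0. The neutrophil markers S100a8, S100a9 and Mpo did not reach the filter.

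Class II molecules present antigen to helper T cells, and their genes are switched on together by the coactivator CIITA through shared promoter boxes, one of which is the Y box. RT1-Da, the rat DR alpha chain, was 14.70, 12.29 and 11.07 in MSC and 12.24, 10.86 and 10.61 in MSCEPO (difference 1.45, or 0.44 without MSC replicate 1). RT1-Ba, the DQ-like alpha chain, was 14.16, 11.75 and 10.65 against 12.04, 10.83 and 11.0 (difference 0.90, or -0.09 without MSC replicate 1). Its partner RT1-Bb differed by 1.32, the invariant chain Cd74 by 1.11 and Ciita by 0.86. In each of these genes MSC replicate 1 was the highest library. The bases before the start of 3 of these genes are shown as an example of the promoter box that members of the list share, from the RefSeq promoter table (GRCr8, 5' to 3' on the strand of the gene), with the Y box TGATTGG in capitals. They are chr20:4515265-4515414 (plus strand) for RT1-Da, chr20:4576907-4577056 (plus strand) for RT1-Ba and chr20:4604119-4604268 (minus strand) for RT1-Bb.
RT1-Da: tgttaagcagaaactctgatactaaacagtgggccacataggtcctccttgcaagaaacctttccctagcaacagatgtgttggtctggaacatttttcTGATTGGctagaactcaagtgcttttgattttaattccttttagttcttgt
RT1-Ba: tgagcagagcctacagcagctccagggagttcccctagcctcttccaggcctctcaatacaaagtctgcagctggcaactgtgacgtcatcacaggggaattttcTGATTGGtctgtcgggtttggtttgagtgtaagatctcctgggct
RT1-Bb: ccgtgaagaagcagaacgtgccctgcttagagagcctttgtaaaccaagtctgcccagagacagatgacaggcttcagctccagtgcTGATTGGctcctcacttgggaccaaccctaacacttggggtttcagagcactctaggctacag
Those letters, searched on both strands, were in the windows of 8 of 8 class II genes found in the table, beginning 45 to 119 bases before the start, and in 6.42% of all 33469 windows of 250 bases.

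Lists of immune signaling and of cell division leaned to MSC with all 6 libraries and were near 0 or on the other side without both outlying ones. Chemokines and their receptors had a higher mean in MSC in 18 of 21 (median 0.49, -0.07 without both outlying libraries). Cxcl9, an interferon-induced chemokine for T cells, was 11.15, 6.57 and 5.95 in MSC and 6.68, 6.27 and 5.87 in MSCEPO, so MSC replicate 1 made the whole difference of 1.62 (-0.01 without it). Interferon response genes were higher in MSC in 30 of 31 (0.37, or 0.02 without both), and 18 of the 31 were highest in MSC replicate 2. Complement genes were higher in MSC in 17 of 19 (0.41, or -0.20) and checkpoint genes in 13 of 14 (0.46, or 0.01). All 22 tested genes of S phase and mitosis had a higher mean in MSC (0.47, or -0.03 without both). The proliferation marker Mki67 was 9.94, 8.22 and 7.05 against 7.90, 7.35 and 5.85 (difference 1.37, or 0.01 without both). What part the leukocyte content of the libraries had in these lists was not tested.

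Red cell genes leaned to MSCEPO, with overlap between the groups. Of the 6 tested, 5 had a higher mean in MSCEPO (median -0.70, and -0.96 without both outlying libraries), while 54.8% of all genes had a higher mean in MSC. In 0 of the 6 the groups did not overlap, beside 1.91% of all genes with MSCEPO higher, and 0 were called. Hba1, an alpha globin, was 9.58, 7.96 and 7.86 in MSC and 9.84, 8.78 and 9.96 in MSCEPO (difference -1.06, interval -2.34 to 0.22). The 4 globin genes Hba1, Hba-a2, Hbb and Hbb-b1 were lower in the MSC library of each of the 3 same-numbered pairs, and reads may be shared between copies within the alpha or within the beta globins. The erythroid transcription factors Klf1 (-0.08) and Tal1 (0.14) were near 0, and Alas2 and Slc4a1 did not reach the filter. The level of the list was 6.78, 5.91 and 5.77 in MSC and 6.91, 6.29 and 6.91 in MSCEPO, beside 5.52 to 6.40 in NT and 6.03 to 6.58 in sham. How much blood each retina held was not tested.

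Genes of the retinal pigment epithelium and the visual cycle, some of them also genes of photoreceptors or Müller glia, had a higher mean in MSCEPO in 12 of 18 (median -0.08, or -0.41 without both outlying libraries). In 2 of the 18 the groups did not overlap, with MSC higher, beside 2.20% of all genes. Rpe65, the isomerase of the visual cycle, was 11.33, 10.54 and 9.09 in MSC and 10.66, 11.35 and 9.95 in MSCEPO (difference -0.34, interval -1.79 to 1.12). Ttr, which carries retinol and thyroxine, was 13.84, 12.08 and 9.47 against 12.22, 13.24 and 11.65, so MSC replicate 3 was the lowest library, and Rgr, a pigment epithelium opsin, was lowest there too at 8.09. Genes of mesenchymal stromal cells, read on the rat transcriptome, had a median of 0.03 with 9 of 15 higher in MSC. Without both outlying libraries the median was -0.27, with 3 of 15 higher in MSC. With all 6 libraries the differences in this list ran from -0.66 to 0.39. Pdgfrb was 9.0, 8.45 and 8.49 against 8.67, 8.56 and 8.65 (difference 0.02, interval -0.43 to 0.47). Neurotrophic factors and receptors had a median of -0.10 with 11 of 17 higher in MSCEPO. Without both outlying libraries the median was 0.00, with 9 of 17 higher in MSC. With all 6 libraries the differences in this list ran from -0.36 to 0.53. Cntf, ciliary neurotrophic factor, was picked out after its values were seen. It was 9.11, 9.26 and 9.02 in MSC and 9.57, 9.65 and 9.19 in MSCEPO (difference -0.34, interval -0.75 to 0.07), lower in the MSC library of all 3 pairs.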

How the data were processed

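The rat retinal RNA was sequenced after mRNA selection with a stranded kit. The authors quantified the reads with Salmon 1.1.0 on Rnor_6.0 and transformed them with DESeq2 (version field 3.2 in the labels). The deposited log2 values are the authors' rlog values, 1 file per sample, corrected by the authors for library size. A series-wide table with 15 more per-sample columns was not used, nor was its column that marks genes. Read counts were not used here, so depth is unknown and no counting intervals are given.

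The groups were taken from the sample titles. The members, gene lists and named genes were chosen with earlier results of these data known. Genes averaging at least 3.32 (rlog) across the 6 libraries were fitted with limma 3.58.1 in R 4.3.3, with group means and a variance trend, and p-values were adjusted over all 15466 genes (Benjamini-Hochberg). A called gene had an adjusted p under 0.05 and a difference over 1. For 13 single genes a two-sided exact permutation test was used. The 41 lists hold 774 symbols, of which 670 were tested, and they were described by counts and medians without a set test. A symbol with more than 1 identifier was read from the identifier with the highest mean, except where the rule for named genes picked another. Named genes are the erythropoietin and STAT5 list, the 8 genes of the study, up to 4 genes with the largest difference and the cell type markers in the lists described, the 10 largest differences without overlap in each direction, and the steadiest differences when libraries are left out; of the lists, a selection of these is printed. Exceptions chosen after their values were seen are Csta, Spink5, Asb15, Dcn, Rnf113a1, the globins, Cntf and both genes without a symbol. Some genes that these rules select are not reported here singly. The scripts were tested on simulated data.

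Deviations from the group means correlated between same-numbered MSC and MSCEPO libraries over the 15466 genes (r = 0.263, 0.158 and 0.279 for numbers 1, 2 and 3; other pairs -0.365 to 0.0646). All 3 exceed 0.1, so the replicate number was treated as a pairing from the data, since the labels do not say what it marks, and was fitted as a block in an alternative. The other alternatives were no filter or a filter in every library, fits of 12 or 15 libraries, median centring, quantile normalization, array weights, no variance trend, group medians, and libraries left out. Promoter sequences came from RefSeq (GRCr8). No genome of the files' build was used, and genes without a symbol were not named.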

Additional observations from a re-analysis of the deposited data

How the results depend on the processing

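No gene was called with limma with the adjusted p alone, without a filter, with the filter in every library, with all 15 libraries, after median centring or quantile normalization, or without the variance trend. The fit of 12 libraries called 1 gene, ENSRNOG00000050489 (adjusted p 0.000115). Array weights called 268 (175 higher in MSC and 93 higher in MSCEPO), from an estimate that did not converge and gave weights from 0.0575 to 90.4. Weights estimated gene by gene, chosen after that was seen, called 4, among them Krt12 (2.66, adjusted p 0.00405) and Tmem221 (-1.95, adjusted p 0.0413). Leaving out 1 library called between 0 and 2 genes, and the 2 came without MSC replicate 1: a gene without a symbol and Rnf113a1 (2.04, adjusted p 0.0173). Without MSC replicate 1 and MSCEPO replicate 3 together 6 were called, among them Asb15 (-2.83, adjusted p 0.0141), the matrix proteoglycan Dcn (-2.38, adjusted p 0.0482) and Krt5 (2.59, adjusted p 0.0482).

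With the replicate number as a block 0 genes were called, as without it. The block was not combined with the other alternatives.

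Genes more than 2-fold higher in MSC numbered 116 to 446 and those higher in MSCEPO 7 to 26 as 1 library was left out, and 51 and 76 without both outlying libraries. With group medians 25 were higher in MSCEPO. Genes without overlap and higher in MSC numbered 207 after median centring and 191 after quantile normalization, and those higher in MSCEPO 478 after quantile normalization and 658 without the filter. The causes were not tested. Of 169 named genes 68 changed sign under some alternative, and 6 of 41 list medians moved by more than the replicate SD. The number of libraries and the shrinkage of rlog values limit what could be called, and the depth is unknown.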

Other observations

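Lens genes varied more between libraries than between the groups. The level of the 19 tested lens genes was 10.97, 8.82 and 9.88 in MSC replicates 1 to 3 and 8.07, 9.03 and 12.00 in MSCEPO, beside 7.50 to 9.40 in NT and 9.61 to 10.02 in sham. Cryaa, the alpha crystallin of the lens fiber, was 15.18, 12.62 and 13.54 in MSC and 11.76, 14.11 and 16.29 in MSCEPO, and 18 of the 19 genes were highest in MSCEPO replicate 3. Crygb, a gamma crystallin, differed by 1.65 with all 6 libraries and by 3.91 without that library.

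The mast cell protease Mcpt1 was 8.94, 10.00 and 6.60 in MSC and 9.56, 8.15 and 4.23 in MSCEPO (difference 1.20, or -0.34 without MSCEPO replicate 3), so MSC replicate 2 was the highest library. In the list of neutrophil and mast cell genes MSC replicate 1 was highest in 4 of the 6 tested.

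Of the immediate early genes, which respond to stimulation within minutes, 16 of 19 had a higher mean in MSC (median 0.20, or 0.08 without MSC replicate 1 and MSCEPO replicate 3). Egr3 was 5.50, 5.52 and 6.70 in MSC and 5.27, 5.31 and 5.07 in MSCEPO, without overlap (difference 0.69, interval -0.11 to 1.49). Clock genes were even, with 8 of 17 higher in MSC and a median of -0.04. The core clock activator Arntl was 10.84, 10.77 and 10.77 against 10.70, 10.45 and 10.43 (difference 0.27), without overlap.

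Extracellular matrix genes had a higher mean in MSC in 17 of 24 (median 0.17), and without MSC replicate 1 and MSCEPO replicate 3 in 5 of 24 (median -0.41). Of the 24, 20 were lowest in MSCEPO replicate 3. PI3K-Akt genes, a second branch below the erythropoietin receptor, had a median of 0.37 with 17 of 26 higher in MSC, and -0.03 without MSCEPO replicate 3.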
